A study of Mus musculus with 8 samples.

Results

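The let-7 family in plasma was taken as 10 mature mouse miRNAs chosen by name: mmu-let-7a-5p, mmu-let-7b-5p, mmu-let-7c-5p, mmu-let-7d-5p, mmu-let-7d-3p, mmu-let-7e-5p, mmu-let-7f-5p, mmu-let-7g-5p, mmu-let-7i-5p and mmu-miR-98-5p (the prefix mmu, for mouse, is dropped from here on). They are 10 of 1881 mouse miRNAs on the array. The plasma came from 24 females of the outbred NMRI stock at an age of 3 months. RNA from a 300 µl plasma pool of 3 mice was hybridised to each of 8 one-colour Agilent miRNA arrays. The IMB group (3 pools, 9 mice) received imatinib, a tyrosine kinase inhibitor, by mouth at 100 mg/kg each day for 9 days. The DOX group (3 pools, 9 mice) received doxorubicin, an anthracycline that damages DNA, into the tail vein in 4 doses of 3 mg/kg given on alternate days. The CTRL group (2 pools, 6 mice) received the solvents of both drugs only. The question was how the plasma miRNAs of each drug group differ from those of the controls, and those after imatinib from those after doxorubicin. The number of arrays limits the precision, and all values come from pools rather than single animals.

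let-7 miRNAs are among the most conserved animal miRNAs. They accumulate as cells differentiate, and they repress messages of growth and stem cell genes such as Lin28, Hmga2, Myc and the Ras genes. The seed, bases 2 to 8 of a mature miRNA, is the stretch that pairs with target messages, so miRNAs with the same seed can share targets. In blood, let-7 miRNAs are found in red cells, platelets and other blood cells as well as in plasma.

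The mature sequences are shown because most members differ from each other at very few bases, which bears on how their array signals can be read. All 10 members had an entry in RefSeq (build GRCm38.p6). They are written 5′ to 3′ with the seed in capitals.
let-7a-5p: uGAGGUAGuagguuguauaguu
let-7c-5p: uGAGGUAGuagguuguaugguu
let-7b-5p: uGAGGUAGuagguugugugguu
let-7e-5p: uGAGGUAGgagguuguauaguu
let-7f-5p: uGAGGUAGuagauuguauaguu
miR-98-5p: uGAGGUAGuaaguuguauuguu
let-7d-5p: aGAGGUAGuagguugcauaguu
let-7g-5p: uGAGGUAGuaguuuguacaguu
let-7i-5p: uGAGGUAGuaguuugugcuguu
let-7d-3p: cUAUACGAccugcugccuuucu

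The 9 members other than let-7d-3p shared 1 seed, and let-7d-3p, the opposite arm of the let-7d hairpin, had another. Counting positions from 1 at the 5′ end and giving the base of let-7a-5p first, let-7c-5p differed by A19G, let-7f-5p by G12A and let-7e-5p by U9G. let-7b-5p differed by A17G and A19G, let-7d-5p by U1A and U16C, let-7g-5p by G12U and U18C, and miR-98-5p by G11A and A19U. let-7i-5p was the farthest from let-7a-5p, with G12U, A17G, U18C and A19U. Since many of the 5p members differ at so few bases, among them let-7a-5p, let-7b-5p, let-7c-5p, let-7e-5p and let-7f-5p, a probe of one may also bind others. Cross-hybridisation between members was not tested. RefSeq holds 2 further mouse miRNAs with this seed, let-7k and miR-1961. Both were on the array and, by the spots of their probes, detected on 0 arrays.

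Several members are made from neighbouring hairpins. Mirlet7d, Mirlet7f-1 and Mirlet7a-1 lie on the minus strand within 2261 bases at chr13:48536012-48538272, and Mirlet7c-2 and Mirlet7b within 801 bases at chr15:85706603-85707403. Mirlet7f-2 and Mir98 lie within 976 bases at chrX:151912346-151913321. Mirlet7c-1 sits between Mir99a and Mir125b-2 at chr16:77598936-77646339, Mirlet7e between Mir99b and Mir125a at chr17:17830194-17830879, and Mirlet7a-2 between Mir100 and Mir125b-1 at chr9:41531425-41582002. Mirlet7g (chr9:106178840-106178927) and Mirlet7i (chr10:122985640-122985724) have no listed hairpin of these families beside them. Because let-7a-5p, let-7c-5p and let-7f-5p each come from more than 1 hairpin, their signals do not say which gene was the source.

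Of all mouse miRNAs, 357 were detected on 1 array or more and 258 to 339 on a given array. The 294 tested ones were those that all arrays of some group detected. Brightness before scaling varied between arrays: the 75th percentile of the commonly detected probes was 196, 425 and 320 in the IMB pools, 213, 249 and 267 in the DOX pools, and 300 and 349 in the CTRL pools. IMB pool 1 and DOX pool 1 were the dimmest arrays and those with the fewest detected miRNAs. Over the 245 miRNAs detected on all arrays, each array correlated with the median of the others at a Pearson r of 0.97 to 0.99. The liver marker miR-122-5p, both endothelial miR-126a arms, 7 of 8 red cell markers, 3 of 3 myeloid markers and 2 of 4 muscle markers were detected on every array. Their detection does not test whether the samples were plasma.

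Detection split the family. 8 of 10 members were detected on all 8 arrays, both by Agilent's call per miRNA and by the spots of their probes, and these 8 were tested. let-7e-5p and miR-98-5p were not tested. By Agilent's call each was detected on 6 of 8 arrays, missing from IMB pool 1 and DOX pool 1. By the spots, let-7e-5p was well above background on 3 arrays and miR-98-5p on 1. After averaging over probes both lay at the floor, a log2 scaled signal of 4.39, on every array, and values at the floor have no order.

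Agilent's unscaled total signal for let-7e-5p was 0.10 (not detected), 8.10 and 8.65 in the IMB pools, 0.10, 3.70 and 3.23 in the DOX pools, and 3.41 and 5.21 in the CTRL pools. For miR-98-5p it was 0.10, 10.7 and 3.66 in the IMB pools, 0.10, 3.23 and 2.83 in the DOX pools, and 6.54 and 7.90 in the CTRL pools. Groups overlapped for both miRNAs, except that each DOX value of miR-98-5p lay below both CTRL values. These totals are not scaled between arrays, and the DOX arrays were also dimmer as a whole, so no fold change is given.

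The number of members that Agilent's call detected was 8, 10 and 10 in the IMB pools, 8, 10 and 10 in the DOX pools, and 10 in each CTRL pool. Each drug group differed from the controls by -0.667 members on average (exact 2-sided permutation p = 1). When detection was taken from the spots, the difference was 0.50 for imatinib and -0.50 for doxorubicin, so the direction for imatinib turned. With 3 against 2 pools this test, which doubles the smaller tail, cannot go below 0.2. As most of the counts compared were tied at 10, it could not come near that here, and it decides nothing.

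The other arms of the family were not detected in plasma by the spots of their probes. Of a list of 14 (the opposite arms of the let-7 hairpins and of Mir98, let-7j, and the 2 other miRNAs with the let-7 seed), 13 were on the array and 0 were detected on any array by that rule. Agilent's call, which detected dim members on more arrays, was not examined for them. By the spots, let-7d-3p was therefore the one opposite arm of the family that was detected.

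**Figure D1:**
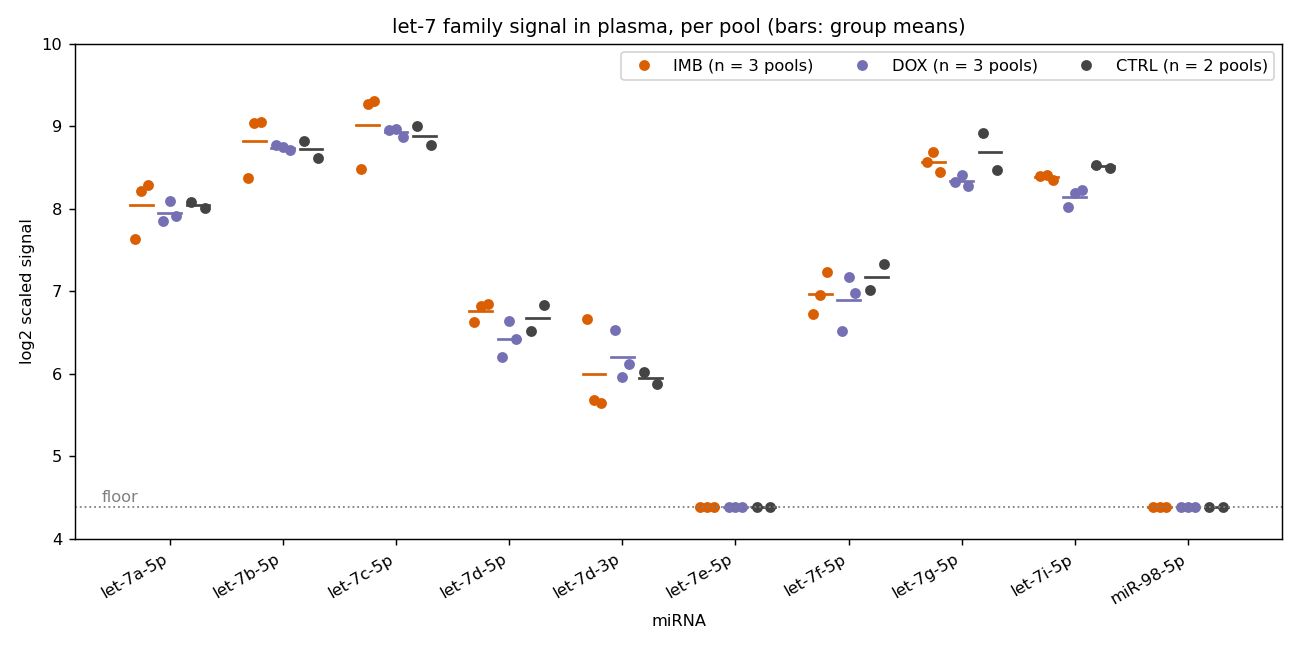
Log2 scaled signal (y axis) of the 10 members (x axis) in each plasma pool, with IMB left, DOX in the middle and CTRL right, and bars at the group means. let-7b-5p and let-7c-5p lie near 9, let-7d-3p near 6, and let-7e-5p and miR-98-5p on the dotted floor of 4.39 in every pool.

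The brightest signals came from let-7c-5p, let-7b-5p, let-7g-5p and let-7i-5p. let-7c-5p had the highest signal of the family on 7 of 8 arrays and let-7g-5p on IMB pool 1. let-7a-5p was the fifth in order on every array, and let-7f-5p, let-7d-5p and let-7d-3p filled the places below it. Signals of different probes also depend on how well each probe binds, so this is an order of brightness and not of copies.

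The values below are log2 scaled signals, and differences are given with their standard errors (SE). let-7i-5p, made from a single hairpin on chromosome 10, had 8.40, 8.41 and 8.35 in the IMB pools, 8.02, 8.19 and 8.23 in the DOX pools, and 8.54 and 8.50 in the CTRL pools. No groups overlapped in any of the 3 comparisons: each DOX pool was below each IMB pool, and each IMB pool was below both CTRL pools. It was also the member with the smallest spread, a pooled SD of 0.074 within groups.

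Doxorubicin against control gave -0.37 for let-7i-5p (SE 0.06, 95% interval -0.53 to -0.21, a fold of 0.773). Its unadjusted p of 0.0016 ranked 2 among the 294 miRNAs, but it did not pass over all miRNAs (limma adjusted p = 0.20). Imatinib against control gave -0.13 (SE 0.06, limma adjusted p = 0.76), and imatinib against doxorubicin gave 0.24 (SE 0.06, limma adjusted p = 0.18). Both drug comparisons use the same 2 control pools. The difference for doxorubicin was -0.41 to -0.31 when any 1 pool was left out. Its adjusted p ran from 0.056 to 0.67 over all alternatives, never past the threshold of 0.05.

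let-7g-5p, also from a single hairpin and able to restrain Ras-driven lung tumours in mice, had 8.57, 8.69 and 8.45 in the IMB pools, 8.33, 8.41 and 8.28 in the DOX pools, and 8.92 and 8.47 in the CTRL pools. Each DOX pool was below both CTRL pools and below each IMB pool, while the IMB and CTRL pools overlapped. Doxorubicin against control gave -0.36 (SE 0.14, unadjusted p = 0.0499, limma adjusted p = 0.58). Much of this rests on CTRL pool 1: without it the difference was -0.13, and without CTRL pool 2 it was -0.58. Imatinib differed from control by -0.13 (SE 0.14, limma adjusted p = 0.92) and from doxorubicin by 0.23 (SE 0.13, limma adjusted p = 0.57).

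let-7b-5p, which outside cells can activate Toll-like receptor 7 in mouse neurons, had 8.38, 9.04 and 9.06 in the IMB pools, 8.77, 8.75 and 8.71 in the DOX pools, and 8.82 and 8.62 in the CTRL pools. let-7c-5p, which shares a cluster with miR-99a, had 8.48, 9.28 and 9.31 in the IMB pools, 8.95, 8.97 and 8.87 in the DOX pools, and 9.00 and 8.77 in the CTRL pools. For both miRNAs IMB pool 1 was the lowest of all 8 pools and IMB pools 2 and 3 were the highest, so the groups overlapped.

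Imatinib against control gave 0.10 for let-7b-5p (SE 0.22, 95% interval -0.44 to 0.65) and 0.13 for let-7c-5p (SE 0.26, 95% interval -0.52 to 0.79). Without IMB pool 1 the differences were 0.33 and 0.40, with limma adjusted p of 0.092 and 0.080. Doxorubicin against control gave 0.02 for let-7b-5p (SE 0.22, 95% interval -0.52 to 0.57) and 0.05 for let-7c-5p (SE 0.26, 95% interval -0.61 to 0.70). These signs turned with no scaling, other scalings or the replicate block, so they set no direction. Imatinib against doxorubicin gave 0.08 (SE 0.20) and 0.09 (SE 0.24). None of these differences passed (limma adjusted p = 0.97 to 1).

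let-7a-5p, the best known member, through its action on Ras, had 7.64, 8.21 and 8.29 in the IMB pools, 7.85, 8.09 and 7.91 in the DOX pools, and 8.08 and 8.01 in the CTRL pools. It repeated the order of let-7b-5p and let-7c-5p within the imatinib group, with pool 1 lowest of all. It differed by -0.00082 for imatinib against control (SE 0.21) and by -0.10 for doxorubicin against control (SE 0.21), with limma adjusted p of 1 and 0.99. Imatinib against doxorubicin gave 0.09 (SE 0.18, limma adjusted p = 0.97). The 95% interval for imatinib against control, -0.51 to 0.51, spans changes of that size either way.

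let-7f-5p, active in human endothelial cells as a promoter of vessel growth, had 6.73, 6.95 and 7.23 in the IMB pools, 6.52, 7.17 and 6.98 in the DOX pools, and 7.02 and 7.33 in the CTRL pools. All groups overlapped. It differed by -0.21 for imatinib (SE 0.24) and by -0.29 for doxorubicin (SE 0.24) against control, with limma adjusted p of 0.92 and 0.91. Imatinib against doxorubicin gave 0.08 (SE 0.22, limma adjusted p = 0.99). Leaving out 1 pool gave -0.36 (without CTRL pool 1) to -0.051 (without CTRL pool 2) for imatinib against control, with -0.085 without IMB pool 1 and -0.34 without IMB pool 3. For doxorubicin against control it gave -0.44 (without CTRL pool 1) to -0.10 (without DOX pool 1), with -0.13 without CTRL pool 2 and -0.43 without DOX pool 2.

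let-7d-5p had 6.63, 6.82 and 6.84 in the IMB pools, 6.21, 6.64 and 6.43 in the DOX pools, and 6.53 and 6.84 in the CTRL pools. DOX pool 1 was the lowest, and IMB pool 1 lay just below DOX pool 2, so all groups overlapped. Its difference between imatinib and doxorubicin, 0.34 (SE 0.14, 95% interval -0.02 to 0.70, limma adjusted p = 0.41), was the family's largest in that comparison. Against control it was 0.08 for imatinib (SE 0.16, limma adjusted p = 0.97) and -0.26 for doxorubicin (SE 0.16, limma adjusted p = 0.78). For doxorubicin it was -0.41 without CTRL pool 1, -0.10 without CTRL pool 2 and -0.15 without DOX pool 1.

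let-7d-3p, the arm with the other seed, had 6.67, 5.69 and 5.65 in the IMB pools, 6.53, 5.97 and 6.12 in the DOX pools, and 6.03 and 5.88 in the CTRL pools. It was highest in IMB pool 1 and DOX pool 1, where the 5p arms of let-7a and let-7f were at their lowest. Its pooled SD within groups, 0.41, was the widest of the family. Imatinib differed from control by 0.05 (SE 0.36) and doxorubicin by 0.25 (SE 0.36), and imatinib from doxorubicin by -0.21 (SE 0.32). Their limma adjusted p of 1, 0.96 and 0.92 did not pass. Doxorubicin against control gave 0.090 without DOX pool 1 and 0.37 without DOX pool 2. Imatinib against doxorubicin gave -0.54 without IMB pool 1, -0.050 without IMB pool 2, -0.030 without IMB pool 3, -0.044 without DOX pool 1 and -0.33 without DOX pool 2.

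**Figure D2:**
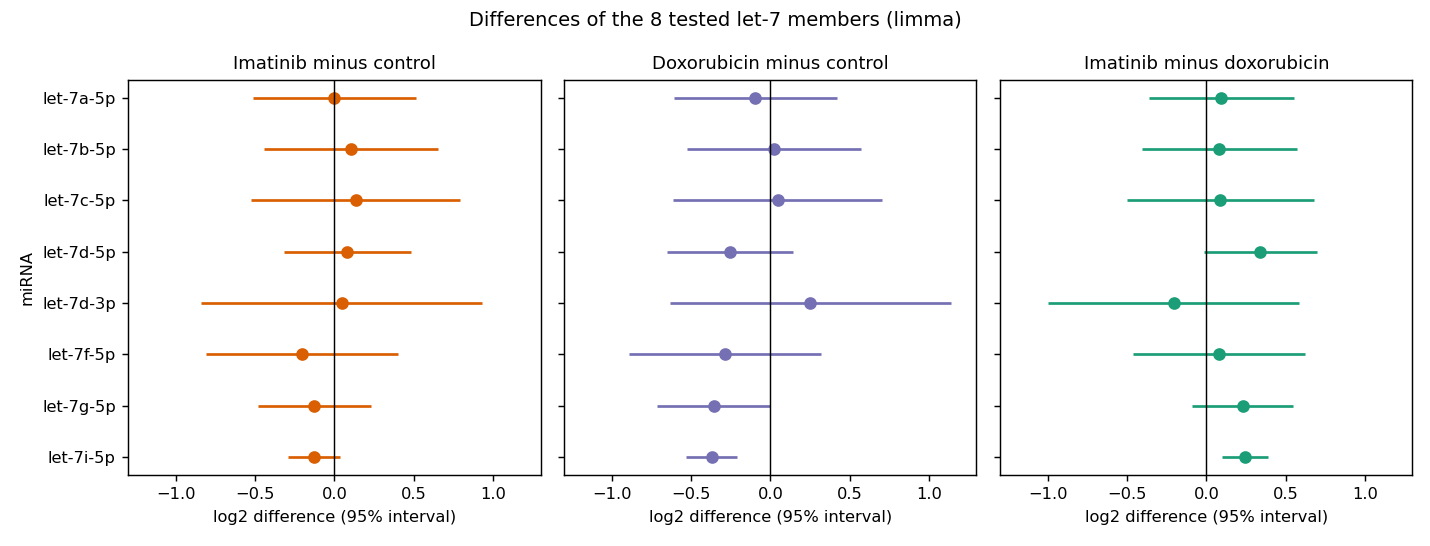
Log2 differences (x axis) of the 8 tested members (y axis) for imatinib minus control, doxorubicin minus control and imatinib minus doxorubicin, with unadjusted 95% intervals from limma. The interval of let-7i-5p lies wholly below 0 for doxorubicin minus control (-0.53 to -0.21), and let-7d-3p has the widest intervals.

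Across the family, 0 of 8 tested members passed in limma in any comparison, and the same held under all 21 alternatives. At an unadjusted p under 0.05 there were 0 members for imatinib against control, where 7.82% of all tested miRNAs met that rule. There were 2 for doxorubicin against control, let-7g-5p and let-7i-5p, where 8.5% of all miRNAs did, and 1 for imatinib against doxorubicin, let-7i-5p, where 10.9% did. After adjustment the share called among all tested miRNAs was 1.02% for imatinib against control, 0.34% for doxorubicin against control and 1.02% for imatinib against doxorubicin.

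Doxorubicin pools lay below both control pools without overlap for 2 of 8 members, let-7g-5p and let-7i-5p, and 9.86% of all tested miRNAs did. Imatinib pools lay below both control pools for let-7i-5p alone, where 6.8% of miRNAs did. Imatinib pools lay above all doxorubicin pools for let-7g-5p and let-7i-5p, where 6.8% did. In the opposite directions there were 0 members each: above both controls, where 10.9% of all miRNAs lay for imatinib and 18.7% for doxorubicin, and imatinib below doxorubicin, where 8.16% lay. These counts of 1 or 2 members are not read as a property of the family.

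The median difference over the 8 members was 0.02 for imatinib against control, -0.18 for doxorubicin against control and 0.09 for imatinib against doxorubicin. The median of all 294 miRNAs was 0.01, 0 and 0. Over the 245 detected on all arrays, as the members were, it was 0.04, 0.04 and -0.04. The shares below 0 that follow are of the 294, which include miRNAs not detected on all arrays. Differences below 0 were found for 4 of 8 members for imatinib against control (39.1% of all miRNAs), 5 of 8 for doxorubicin against control (40.8%) and 1 of 8 for imatinib against doxorubicin (49.3%). The medians hang on single pools. For doxorubicin the median was -0.07 without DOX pool 1, -0.26 without DOX pool 2, -0.10 without CTRL pool 1 and -0.12 without CTRL pool 2. For imatinib against doxorubicin, leaving out IMB pool 1 gave 0.27, IMB pool 2 gave 0.05, IMB pool 3 gave -0.03 and DOX pool 2 gave 0.19. For imatinib against control, leaving out IMB pool 2 or 3 gave -0.04, CTRL pool 2 gave -0.03, IMB pool 1 gave 0.03 and CTRL pool 1 gave 0.07.

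Different probes of a member were compared with each other. Each of the 7 tested 5p members had 2 probes detected on all arrays, and so did let-7d-3p, which had 4 probes in all. For doxorubicin against control the probes of each of the 8 members had the same sign and differed from each other by at most 0.15. For imatinib against doxorubicin they also had the same sign in 8 of 8 members, and for imatinib against control in 7 of 8, the exception being let-7a-5p, whose difference was near 0.

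Both let-7d arms come from 1 hairpin, and a single scaling factor per array cancels in their difference. let-7d-3p minus let-7d-5p was 0.04, -1.13 and -1.20 in the IMB pools, 0.32, -0.67 and -0.31 in the DOX pools, and -0.50 and -0.96 in the CTRL pools. Both first pools of the drug groups stood above every other pool, and the groups overlapped. The means were -0.76 ± 0.70 (SD, n = 3) for IMB, -0.22 ± 0.50 (SD, n = 3) for DOX and -0.73 ± 0.33 (SD, n = 2) for CTRL. Exact 2-sided permutation gave p = 1 for imatinib against control, p = 0.4 for doxorubicin against control and p = 0.3 for imatinib against doxorubicin, where 3 against 3 pools cannot go below 0.1. Adjusted over these 3 comparisons the exact p-values were 1, 0.6 and 0.6. With normexp background correction the difference for doxorubicin against control was 0.31, against 0.51 as reported, and for imatinib against doxorubicin -0.34, against -0.55. Leaving out 1 pool moved them over 0.24 to 0.74 and -0.95 to -0.27, and moved imatinib against control, -0.04 as reported, over -0.44 to 0.19. The arrays of IMB pool 1 and DOX pool 1 were also the dimmest. Slide row 1 carried IMB pool 1, DOX pools 1 and 2 and CTRL pool 1. Slide row 2 carried IMB pools 2 and 3, DOX pool 3 and CTRL pool 2. Taken in that order, the arm differences were 0.04, 0.32, -0.67 and -0.50 for row 1. For row 2 they were -1.13, -1.20, -0.31 and -0.96. The parts of brightness and of slide row in the arm difference were not tested.

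**Figure D3:**
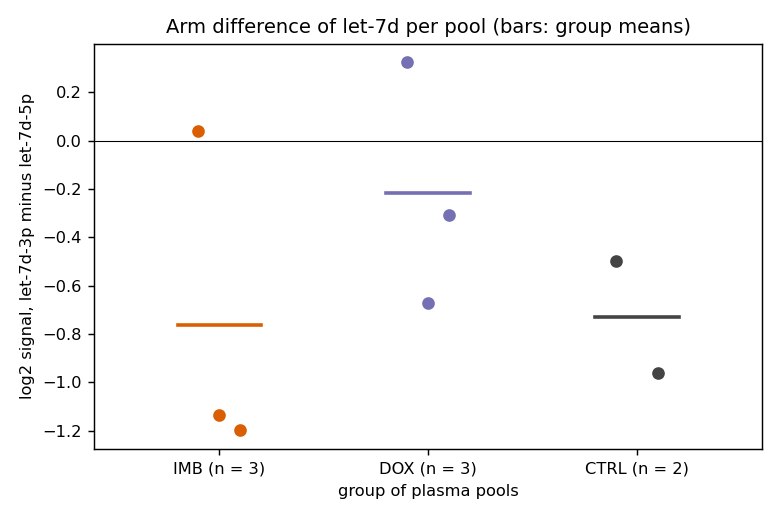
Log2 signal of let-7d-3p minus let-7d-5p (y axis) in each pool of the IMB, DOX and CTRL groups (x axis), with bars at the group means. One pool of IMB (0.04) and one of DOX (0.32) lie above 0, and the other 6 lie between -1.20 and -0.31.

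The members did not vary as one block over the 8 arrays. The correlations that follow are descriptions over arrays that share a slide and the same scaling, with no test. let-7b-5p and let-7c-5p, which differ at 1 base, correlated at a Pearson r of 0.998, and let-7a-5p correlated with them at 0.90 and 0.91. let-7g-5p and let-7i-5p, which differ from each other at 2 bases, correlated at 0.75. Between these groups the correlations were low, from -0.05 for let-7c-5p with let-7i-5p to 0.23 for let-7a-5p with let-7g-5p, and without IMB pool 1 they ran from 0.10 to 0.52.

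Among the 5p members, pairs with 1 base difference had a median r of 0.91 over 3 pairs, pairs with 2 had 0.42 over 6, pairs with 3 had 0.26 over 5, and pairs with 4 had 0.24 over 6. The farthest pair, let-7d-5p and let-7i-5p with 6 differences, had 0.67, outside that order. Without IMB pool 1 the medians were 0.81, 0.60, 0.30 and 0.36. let-7d-3p was inversely related to each of the 7 other tested members, with r from -0.95 for let-7a-5p to -0.19 for let-7g-5p, and from -0.955 (let-7d-5p) to -0.349 (let-7g-5p) without IMB pool 1.

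**Figure D4:**
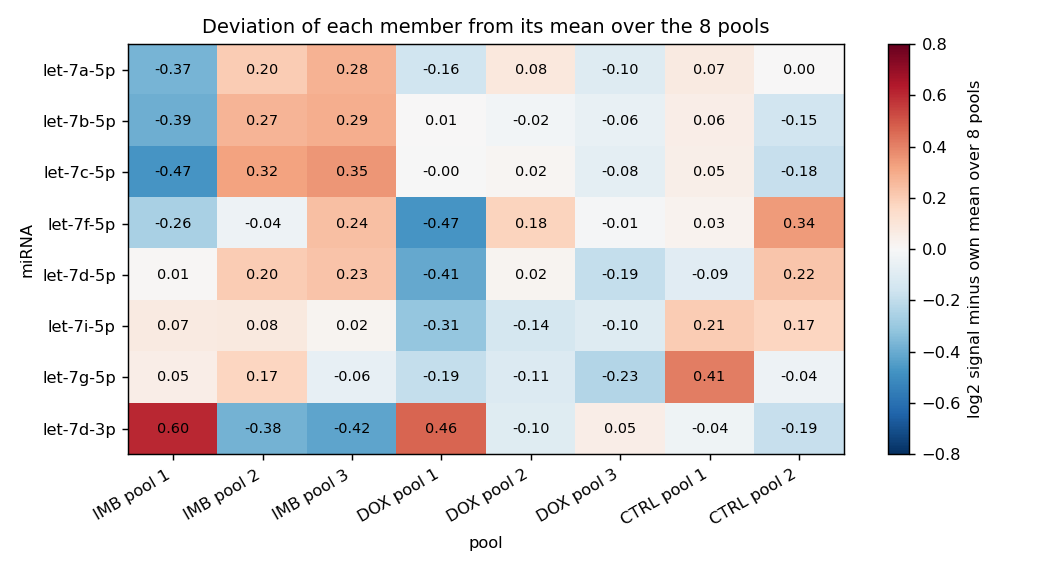
Log2 signal of each tested member (rows) in each pool (columns) minus that member's own mean over the 8 pools, red for higher and blue for lower. In IMB pool 1 let-7a-5p, let-7b-5p and let-7c-5p are 0.37 to 0.47 lower than their means while let-7d-3p is 0.60 higher. The array of IMB pool 1 was also the dimmest before scaling.

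Cluster partners of let-7 hairpins varied with the first of these groups. miR-99a-5p, miR-125a-5p and miR-125b-5p, which are transcribed from the same clusters as let-7c, let-7e and let-7a and have other seeds, were detected on all arrays. miR-99a-5p had 4.50, 5.33 and 5.39 in the IMB pools, 5.01, 5.06 and 4.95 in the DOX pools, and 5.22 and 5.05 in the CTRL pools. Like let-7c-5p it was lowest in IMB pool 1 and highest in IMB pools 2 and 3.

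It correlated at 0.95 with let-7a-5p, 0.95 with let-7b-5p and 0.94 with let-7c-5p, and at 0.92, 0.90 and 0.89 without IMB pool 1. miR-125b-5p correlated with these 3 members at 0.87 to 0.89, against 0.39 with let-7g-5p and 0.16 with let-7i-5p. Without IMB pool 1 this contrast was not kept, with 0.71 to 0.77 for the 3 members, 0.70 for let-7g-5p and 0.44 for let-7i-5p. miR-125a-5p correlated with the 3 members at 0.80 to 0.90, against -0.22 with let-7g-5p and -0.21 with let-7i-5p. Without IMB pool 1 its values were 0.53 to 0.77 for the 3 members, -0.22 for let-7g-5p and -0.12 for let-7i-5p. Of the 5 cluster partners, 4 were tested and 0 passed in limma in any comparison. miR-100-5p was detected on 7 arrays and miR-99b-5p on 0. Mirlet7b lies in none of the clusters of these partners, and let-7e-5p, the cluster mate of miR-125a-5p, lay at the floor. Among 233 other miRNAs, likeness to the mean of the tested members ranked miR-99a-5p 10 (r = 0.79) and miR-125b-5p 11 (r = 0.76). miR-125a-5p ranked 43 (r = 0.49). The part of shared clusters in these correlations was not tested.

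Correlations with the 7 detected red cell markers were positive for both let-7g-5p and let-7i-5p. let-7g-5p correlated with miR-144-3p at 0.45, with miR-92a-3p at 0.57, with miR-486a-5p at 0.72, with miR-451a, the most abundant red cell miRNA, at 0.73, with miR-16-5p at 0.84, with miR-25-3p at 0.87 and with miR-15b-5p at 0.89. let-7i-5p correlated with miR-92a-3p at 0.32, with miR-486a-5p at 0.42, with miR-451a at 0.48, with miR-144-3p at 0.51, with miR-16-5p at 0.59, with miR-25-3p at 0.67 and with miR-15b-5p at 0.88. Without IMB pool 1 the ranges were 0.46 to 0.93 for let-7g-5p and 0.29 to 0.90 for let-7i-5p. Correlations of either member with markers of other cells were not computed, so these values have no background and do not single out red cells.

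For let-7a-5p, let-7b-5p and let-7c-5p the correlations with these markers other than miR-92a-3p lay between -0.13 and 0.19, and those with miR-92a-3p between -0.61 and -0.59. These values rest on IMB pool 1, where these 3 members were lowest and the summed red cell signal was highest. Without it their correlations lay between 0.36 and 0.89, and between -0.17 and -0.14 with miR-92a-3p.

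The summed linear signal of the 7 detected red cell markers was 33241 to 42306 in the IMB pools, 19208 to 28540 in the DOX pools and 24198 to 39719 in the CTRL pools. Both drug groups overlapped the controls, and the lowest IMB sum was above the highest DOX sum. Most of each sum was miR-451a, with a mean log2 signal of 15.02 in the IMB pools, against 11.08 for miR-16-5p, the next brightest. The measure given next also uses miR-451a and is not separate from the sum. A red cell index (the log2 signal of miR-451a less that of miR-23a-3p) took values of 3.91, 4.45 and 3.90 in the IMB pools, 3.15, 2.68 and 2.73 in the DOX pools, and 3.84 and 3.18 in the CTRL pools. Exact 2-sided permutation gave p = 0.2 for imatinib against control, p = 0.2 for doxorubicin against control and p = 0.1 for imatinib against doxorubicin, each 0.2 after adjustment over these 3 and each the smallest p its design allows. miR-144-5p, the remaining marker, was at the floor on all arrays.

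For imatinib against control 5 of 7 markers were above 0 with a median of 0.06, and 1, miR-144-3p, passed (0.82, SE 0.07, limma adjusted p = 0.0077). For doxorubicin against control 7 of 7 were below 0 with a median of -0.47, and 0 passed in limma. At an unadjusted limma p under 0.05 there were 3, where 8.5% of all tested miRNAs met that rule. For imatinib against doxorubicin 7 of 7 were above 0 with a median of 0.58, and 1, miR-144-3p, passed (1.20, SE 0.06, limma adjusted p = 0.00090). Of all tested miRNAs, 39.1%, 40.8% and 49.3% were below 0 in these comparisons, taken in that order. The differences of let-7g-5p and let-7i-5p had the sign of the markers' medians for doxorubicin against control and for imatinib against doxorubicin. They had the opposite sign for imatinib against control, where both were -0.13. The part of red cell RNA in their values was not tested. In plasma, fewer source cells and less RNA released per cell cannot be told apart.

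**Figure D5:**
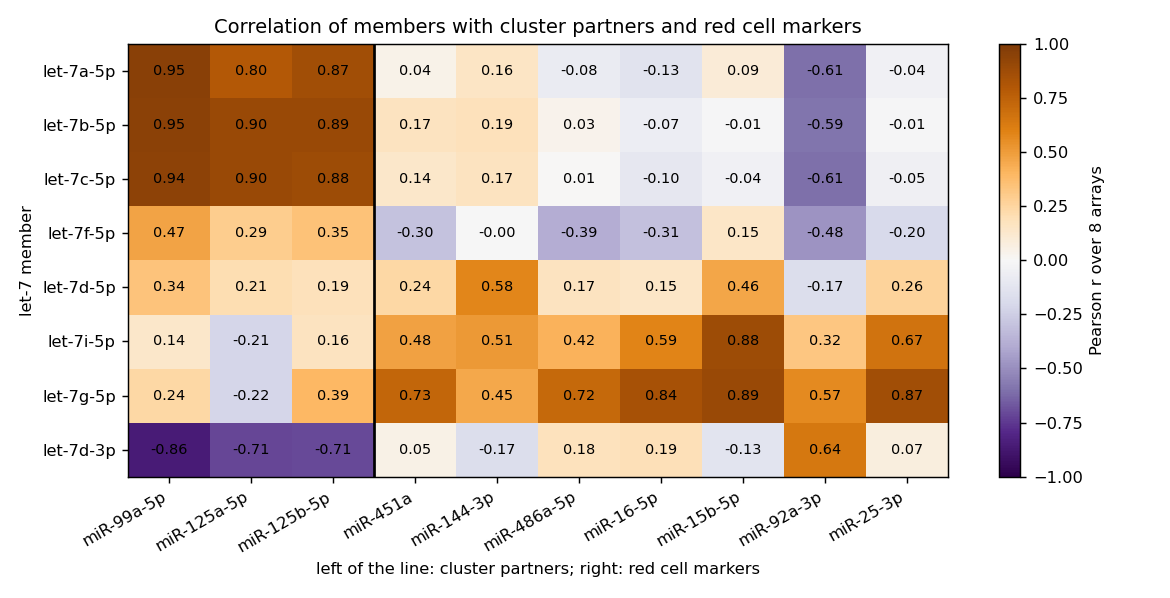
Pearson r over the 8 arrays between each tested let-7 member (rows) and cluster partners (left of the line) or red cell markers (right). let-7a-5p, let-7b-5p and let-7c-5p reach 0.80 to 0.95 with the cluster partners, and let-7g-5p reaches 0.45 to 0.89 with the red cell markers. Without IMB pool 1 (not drawn) these ranges were 0.53 to 0.92 and 0.46 to 0.93.

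Among the other 233 miRNAs detected on all arrays with a signal that varied, those most like the mean of the 8 members over the 8 arrays were miR-3102-5p (r = 0.94), miR-7011-5p (r = 0.93), miR-6385 (r = 0.91), miR-26b-5p (r = 0.87) and miR-7118-5p (r = 0.86). The median r over these miRNAs was -0.06. The mean of the members was 7.69, 7.89 and 7.90 in the IMB pools, 7.65, 7.77 and 7.69 in the DOX pools, and 7.87 and 7.80 in the CTRL pools. Each DOX pool was below both CTRL pools, and IMB pool 1 lay among the DOX pools. Of all tested miRNAs, 9.86% had each DOX pool below both CTRL pools. The mean includes let-7d-3p, which varied inversely to the other members.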

How the data were processed

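Spot intensity in the deposited scanner files is linear and already background-subtracted by the Agilent Feature Extraction software (version 11.5.1.1, per the submitters' processing notes) and not scaled between arrays, per the file headers. The authors' deposited table of log2 values, for which no label or header states the processing, served as an alternative.

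Non-outlier spots were averaged per probe. A probe counted as detected if more than 50% of those spots were well above background. Arrays were scaled to the 75th percentile of the 454 probes detected on all 8, probes were averaged per miRNA, and values were floored at 20.9 before log2. No spot was saturated. limma 3.58.1 in R 4.3.3 was fitted to all 8 arrays at once, with Benjamini-Hochberg adjustment over the 294 tested miRNAs. Only the limma fit was run on simulated log2 values, with planted changes larger than any difference of the members. That run did not cover scaling, averaging, flooring, detection or permutation. It cannot show whether changes of the members' size would be found. Exact permutation used scipy 1.17.1. The labels call the pools biological replicates, and no 2 arrays held identical values.

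Every member was named, and other miRNAs only from lists of same-seed miRNAs, opposite arms, cluster partners, cell markers and the 5 most like the members' mean. Members and lists were chosen with earlier results of these data known. The labels do not say whether equal replicate numbers mark a shared batch. Deviations of same-numbered pools correlated at -0.24 to 0.40, which cannot settle this, and the pools were not treated as pairs. All arrays lay on 1 slide. Correlations without IMB pool 1, and those with cluster partners and red cell markers, were added after seeing the data.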

Additional observations from a re-analysis of the deposited data

How the results depend on the processing

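The 24 differences of the 8 members were recomputed under 21 alternatives, 504 values in all. No member passed the threshold under any of them, with a smallest adjusted p of 0.056 (let-7i-5p, doxorubicin against control, without DOX pool 1). The sign was kept in 468 values and turned in 36, and the cause of the turns was not tested. Part of the 468 could not turn. The members' differences were unchanged when only the filter, the set of groups fitted or the floor was altered. They were also unchanged where the pool left out belonged to neither group compared. In what follows, counts are of all miRNAs past the threshold, where the reported fit called 3 for imatinib against control, 1 for doxorubicin against control and 3 for imatinib against doxorubicin.

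With no scaling, which moved the median of all miRNAs to -0.04 for imatinib against control, -0.32 for doxorubicin against control and 0.23 for imatinib against doxorubicin, the members' medians were -0.093, -0.60 and 0.40 and imatinib against control had 0 calls. It gave -0.012 for let-7b-5p, -0.070 for let-7d-3p and -0.033 for let-7d-5p for imatinib against control, -0.40 for let-7b-5p, -0.38 for let-7c-5p and -0.17 for let-7d-3p for doxorubicin against control, and 0.10 for let-7d-3p between the drugs. Normexp background correction, on median spot signals, moved the median of all miRNAs to 0.07, 0.17 and -0.12 in the same order. It gave counts of 1 and 5 for imatinib against control and against doxorubicin, 0.021 for let-7a-5p (imatinib against control) and a members' median of -0.058 for doxorubicin against control. The percentile over all probes gave counts of 0 for imatinib and 2 for doxorubicin against control, 0.0041 for let-7a-5p (imatinib), and -0.058 for let-7b-5p and -0.034 for let-7c-5p (doxorubicin). Quantile normalization gave -0.023 for let-7b-5p and -0.0023 for let-7c-5p for doxorubicin against control.

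Agilent's total signal gave counts of 1, 2 and 5 in the same order and -0.011 for let-7d-3p (imatinib against control). The authors' table gave 1 and 2 against control and -0.024 for let-7d-3p (imatinib against control). A floor 4 times lower gave 1, 2 and 5, no filter on dim probes gave 0 and 0 against control, the median of probes gave 7 between the drugs, and fitting only the groups compared gave 0 for doxorubicin against control. The slide row as a block gave -0.0072 for let-7f-5p between the drugs. Members detected by spots differed by 0.50 between imatinib and control, against -0.667 by Agilent's call.

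Whether equal replicate numbers mark a shared batch is not stated in the labels. Same-numbered pools, whose deviations correlated at -0.24 to 0.40, were not treated as pairs in the reported fit. With a replicate block, doxorubicin against control had 0 calls, and let-7b-5p and let-7c-5p gave -0.027 and -0.010.

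Leaving out 1 pool at a time gave counts of 0 to 12, 0 to 2 and 3 to 20 in the same order, the counts of 12 and 20 without IMB pool 1. The members' medians ran from -0.26 to -0.073 for doxorubicin against control and from -0.028 to 0.27 for imatinib against doxorubicin. For imatinib against control, let-7a-5p ran from -0.12 to 0.20, let-7b-5p from -0.013 to 0.33, let-7c-5p from -0.0081 to 0.40, let-7d-5p from -0.074 to 0.24, let-7d-3p from -0.29 to 0.22 and let-7g-5p from -0.35 to 0.098. For doxorubicin against control, let-7b-5p ran from -0.080 to 0.13 and let-7c-5p from -0.068 to 0.16. For imatinib against doxorubicin, let-7a-5p ran from -0.025 to 0.30, let-7b-5p from -0.036 to 0.30, let-7c-5p from -0.054 to 0.36 and let-7f-5p from -0.10 to 0.22. Where a group kept 1 pool, that pool was assumed to vary like the other groups. Signals near background limit let-7e-5p and miR-98-5p.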
